A study of Mus musculus with 6 samples.

Results

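The insulin receptor, the insulin receptor substrates, the PI3K subunits and the AKT, FOXO and GSK3 genes of the heart are described here through 10 genes, Insr, Irs1, Irs2, Pik3r1, Pik3ca, Akt1, Akt2, Foxo1, Foxo3 and Gsk3b. They were chosen by their gene names from the 54532 genes of the deposited expression table, with earlier results of these data known. All 10 were expressed above the filter on low values. Hearts of 6 male mice, each 12 weeks old and kept on standard chow, gave 1 RNA library each. The 3 WT and 3 Mc4r KO (Mc4r -/-) mice were littermates from crosses of heterozygous mice on the C57B/6/N background, and no allele, drug or diet other than the Mc4r knockout set the groups apart. The study reports a greater body weight of Mc4r KO mice at this age, and the part of body weight in the results below was not tested. Mc4r encodes the melanocortin 4 receptor, which is known for its role in the control of appetite in the brain. The knockout was present in the whole body and not only in the heart, so effects on the heart that arise within it and those that come from other organs cannot be told apart. The tissue is given as heart in the sample labels, as muscle in their titles and as left ventricle in the study's discussion. Values are listed for replicates 1, 2 and 3 of a group in this order throughout. Mc4r itself had 0, 0 and 2 reads in WT and 0 reads in each Mc4r KO library. Both groups were at or under a floor of 3 reads, so the heart libraries could not check the genotype.

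Insulin binds its receptor, a tyrosine kinase, which phosphorylates the docking proteins IRS1 and IRS2. They recruit PI3K, a complex of a regulatory subunit such as the product of Pik3r1 and a catalytic subunit such as that of Pik3ca, whose lipid product brings AKT kinases to the membrane for activation. AKT in turn phosphorylates and restrains the FOXO transcription factors and the kinase GSK3, and in heart muscle it moves the glucose transporter GLUT4 to the cell surface. FOXO factors are known to raise the transcription of Irs2 and of genes of protein breakdown, autophagy and cell death. RNA levels say nothing of phosphorylation, which carries most of this signal.

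The promoters of the 2 docking protein genes are shown because Irs1 and Irs2 lay on opposite sides in the comparison. The sequences are the 250 bases before the RefSeq start of each gene in GRCm38.p6, read 5′ to 3′ on the gene's strand, which is the minus strand for both. Irs1 has its window at chr1:82291440-82291689 and Irs2 at chr8:11008930-11009179. Capitals mark the E-box CACGTG, a motif that reads the same on both strands.
Irs1: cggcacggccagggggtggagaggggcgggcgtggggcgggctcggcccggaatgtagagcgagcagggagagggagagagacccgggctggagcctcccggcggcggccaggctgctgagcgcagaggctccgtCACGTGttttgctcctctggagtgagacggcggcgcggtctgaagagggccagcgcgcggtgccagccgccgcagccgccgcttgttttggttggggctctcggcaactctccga
Irs2: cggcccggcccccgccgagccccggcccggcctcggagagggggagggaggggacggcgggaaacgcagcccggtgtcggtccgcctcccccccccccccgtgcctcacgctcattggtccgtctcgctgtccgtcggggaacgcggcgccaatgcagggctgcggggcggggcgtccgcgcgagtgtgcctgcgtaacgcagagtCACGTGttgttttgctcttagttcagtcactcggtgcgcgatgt
The E-box begins at position -115 from the start in Irs1 and at position -44 in Irs2. It was found in 6.02% of the 32851 promoter windows of the same length, and in 2 of the 14 windows of the genes described here. The forkhead element GTAAACA, searched on both strands, occurred in 3.17% of all windows and in 1 of the 14, a window of Akt1. The cAMP response element TGACGTCA occurred in 1.55% of all windows and in 0 of the 14. A match or its lack is a description of these letters only.

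The expression values are FPKM, in which the fragments of each gene are divided by gene length and by a factor for each library, so levels can be compared between genes. Depth on genes was 14767929, 14888500 and 16047003 reads for WT, and 14691076, 15535174 and 15649074 reads for Mc4r KO. Transcripts of the mitochondrial chromosome took 59.3%, 57.4% and 47.1% of the FPKM in WT and 43.6%, 46.6% and 43.0% in Mc4r KO. WT replicate 3 thus lay nearer to the Mc4r KO libraries in this share. It also stood apart in a principal component analysis of 11297 genes, at 37.9 on the second component (23.0% of the variance), where the other libraries lay between -13.4 and 5.04. The first component (40.4%) separated the groups, with WT at -34.2, -27.9 and -3.46 and Mc4r KO at 17.5, 26.8 and 21.4.

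Heart muscle markers matched the labelled tissue. Actc1, cardiac actin, was the most abundant of 10 cardiomyocyte markers with a mean FPKM of 6359. Of 10 skeletal muscle markers, Myh1, Myh2, Myh4 and Myod1 were below the filter, and the 6 given below passed it. The summed FPKM of the cardiomyocyte markers was 19246, 19503 and 18109 in WT and 22082, 23927 and 22834 in Mc4r KO, and 8 of the 10 were higher in Mc4r KO. Atrial markers set WT replicate 3 apart. Their summed FPKM was 54.7, 118 and 845 in WT and 163, 25.6 and 73.3 in Mc4r KO. Nppa, which encodes a natriuretic peptide, was the most abundant of these 8, and Sln was at 0 in WT replicate 1 and in Mc4r KO replicates 2 and 3. All 8 erythrocyte markers, led by the globin gene Hbb-bs, were lower in Mc4r KO. Their summed FPKM was 4503, 861 and 6353 in WT and 1654, 664 and 621 in Mc4r KO. The sums overlapped, since WT replicate 2 lay below Mc4r KO replicate 1.

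Of the adipocyte markers, 4 of 10 passed the filter on low values. Adipoq, Plin1, Lep, Retn, Cidec and Ucp1 did not, and Lep, Retn and Ucp1 were at 0 in all 6 libraries. The adipocyte sum was 153, 177 and 139 in WT and 190, 192 and 189 in Mc4r KO, mostly from Fabp4, which endothelial cells also express, with 3 of 4 genes higher. Endothelial markers summed to 266, 290 and 253 in WT and 317, 312 and 269 in Mc4r KO, led by Cdh5, with 7 of 10 higher. Fibroblast markers summed to 638, 767 and 886 in WT and 739, 563 and 684 in Mc4r KO, led by Gsn, with 8 of 10 lower. Macrophage markers summed to 209, 185 and 287 in WT and 291, 247 and 229 in Mc4r KO, led by Lyz2, with 4 of 10 higher. The 6 tested skeletal muscle markers summed to 493, 594 and 358 in WT and 575, 960 and 649 in Mc4r KO, led by Ckm, which the heart also expresses, with 4 higher. None of the markers in these 8 lists was called in the test described next, where 0.46% of all genes were. At its unadjusted p under 0.05, 4 of 8 erythrocyte, 3 of 10 fibroblast, 3 of 10 macrophage and 1 of 4 adipocyte markers were lower, beside 8.83% of all genes. On the higher side were 3 of 10 endothelial, 2 of 10 cardiomyocyte, 2 of 4 adipocyte and 1 of 6 skeletal muscle markers, beside 12.0% of all genes, and no atrial marker was on either side. The fibroblast gene Dcn, chosen after its values were seen, had a limma adjusted p of 0.0579 and was under 0.05 in 5 of 18 alternatives. The part of any cell type in the results below was not tested. In bulk tissue, fewer cells of a type and less RNA per cell cannot be told apart.

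To ask whether the genes of insulin signalling differed between the hearts of Mc4r KO and WT mice, limma was fitted to log2(FPKM + 0.1) of the 18035 genes whose mean FPKM reached 0.1. A gene was called with an adjusted p under 0.05 (Benjamini-Hochberg over all genes tested) and an absolute log2 fold change above 0.75. None of the 10 genes was called, where 0.46% of all genes were, and none had an adjusted p under 0.05 at any fold change, where 0.582% of all genes did. At an unadjusted p under 0.05, 2 of the 10 were higher in Mc4r KO (Irs1 and Pik3r1) and 2 were lower (Irs2 and Pik3ca), against 12.0% of all genes higher and 8.83% lower. The groups did not overlap in 2 genes that were higher (Irs1 and Pik3r1) and 2 that were lower (Irs2 and Akt1), against 14.1% of all genes higher and 12.4% lower. Each of these counts rests on 2 genes. The median log2 fold change of the 10 was -0.09, beside -0.01 over all genes tested.

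**Figure D1:**
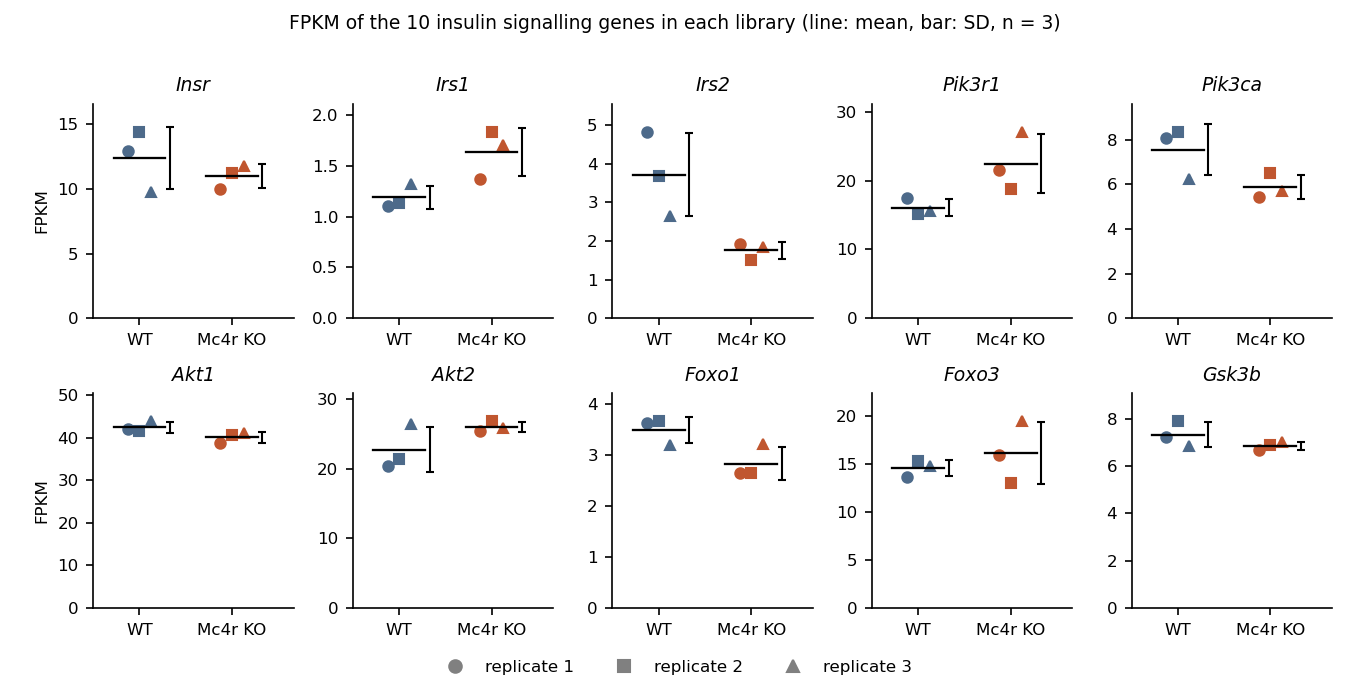
FPKM of the 10 insulin signalling genes in each heart library, with WT in blue and Mc4r KO in orange. Each symbol is 1 mouse, horizontal lines are group means, bars are SD (n = 3), and each panel has its own axis from 0. The 3 Mc4r KO libraries lay between 1.51 and 1.93 for Irs2, all below the 3 WT libraries at 2.66 to 4.82.

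Insr, the gene of the insulin receptor itself, lies at chr8:3122061-3279617 on the minus strand of mm10. Its FPKM was 12.9, 14.4 and 9.73 in WT and 9.95, 11.2 and 11.7 in Mc4r KO. The groups overlapped, because WT replicate 3 was the lowest of all 6 libraries. Its log2 fold change was -0.15 (SE 0.15, 95% interval -0.52 to 0.21, limma adjusted p = 0.599). The value was negative in 17 of 18 alternatives, at -0.32 without WT replicate 3 and -0.04 without WT replicate 2, and it was 0.20 with the GC percentage of each library's reads as a covariate. That percentage was higher in every Mc4r KO library than in every WT library, but WT replicate 3 was only just below the lowest Mc4r KO library. With this covariate GC content and genotype are thus hard to tell apart, and the fitted difference rests largely on WT replicate 3. This holds here and wherever the covariate is used below. Igf1r, the receptor gene of insulin-like growth factor 1 and a close relative of Insr, was named after its values were seen. It had an FPKM of 2.03, 2.38 and 1.94 in WT and 1.67, 1.65 and 1.72 in Mc4r KO. The groups did not overlap, with a log2 fold change of -0.31 (SE 0.13, adjusted p = 0.232 by limma). Insrr, another member of the receptor family, was below the filter with an FPKM of at most 0.0206.

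Irs2, which encodes the docking protein known above all from liver and pancreatic islets, had the lowest p and the largest log2 fold change of the 10 genes. It lies at chr8:10984681-11008458 (minus strand, mm10). Irs2 had an FPKM of 4.82, 3.67 and 2.66 in WT, and of 1.93, 1.51 and 1.84 in Mc4r KO. The reads behind these values were 430, 333 and 286 in WT and 189, 145 and 187 in Mc4r KO. Each Mc4r KO library was below each WT library, and the WT libraries varied more among themselves (mean 3.72 ± 1.08, SD, n = 3) than the Mc4r KO libraries (1.76 ± 0.220, SD, n = 3). Limma gave a log2 fold change of -1.004 (SE 0.22, 95% interval -1.52 to -0.48). Irs2 ranked 507 of the 18035 genes by p (0.00247), and its adjusted p of 0.0871 in limma was above the threshold.

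Whether Irs2 passed the threshold depended on the setting. Its adjusted p was 0.0164 without WT replicate 3, where the log2 fold change was -1.22, and 0.0339 with limma's array weights, 0.0299 with limma voom on the recovered reads and 0.0469 with protein-coding genes only. With the GC percentage of the reads as a covariate the log2 fold change was -0.52 (limma adjusted p = 0.509). The value was negative in all 18 alternatives tried, but in many of them the sign could not change. The filters on genes, the trend and the replicate block leave the fold change as it is. With groups that do not overlap, leaving out a library could hardly reverse it. Within WT, Irs2 was lowest in replicate 3, the library with the highest atrial markers and the lowest mitochondrial share, and whose part in the result is given by the value without it. The mitochondrial share was higher in each WT library than in each Mc4r KO library, as Irs2 was. Under a scaling to the FPKM outside the mitochondrial chromosome, the median of all genes went from -0.01 to -0.19 and Irs2 to -1.19, still below that median.

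Irs1, the docking protein gene best known from muscle and fat, lay on the opposite side at a lower level and did not pass the test. The gene spans chr1:82233101-82291416 on the minus strand of mm10. Irs1 had an FPKM of 1.11, 1.13 and 1.32 in WT and of 1.37, 1.84 and 1.70 in Mc4r KO. The groups did not overlap, although Mc4r KO replicate 1 lay just above WT replicate 3 and had fewer reads (195 against 206). Irs1 had a log2 fold change of 0.43 (SE 0.16, 95% interval 0.04 to 0.81, limma adjusted p = 0.204). It was 0.24 with scaling outside the mitochondrial chromosome and 0.28 with the GC covariate. Exons of Gm9747 on the other strand cover 30.9% of the exonic bases of Irs1. Since the use of strand in the counting is not stated, reads there could be left out or assigned to either gene. Gm9747 had 0 reads in all 6 libraries. Irs4, another docking protein gene, had an FPKM of 0 throughout.

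Because both docking proteins were measured in the same library, their ratio does not depend on the scaling between libraries. Irs1 over Irs2 was 0.230, 0.309 and 0.498 in WT and 0.713, 1.22 and 0.924 in Mc4r KO. The ratio was 2.83-fold higher in Mc4r KO (difference of log2 means 1.50), and the groups did not overlap. An exact two-sided permutation test gave p = 0.1, the smallest that 3 against 3 allows. It stayed 0.1 after adjustment over the 4 ratios tested, as it must where all 4 have this smallest value. In each of the 4 pairs the log2 fold changes of the genes had opposite signs. How often ratios of other gene pairs lack overlap was not determined. Irs2 made up 81.3%, 76.4% and 66.8% of the summed FPKM of the pair in WT and 58.4%, 45.1% and 52.0% in Mc4r KO. The sum itself was 5.93, 4.80 and 3.98 in WT and 3.30, 3.35 and 3.55 in Mc4r KO, again without overlap. Irs2 was thus the more abundant of the pair in all WT libraries and in 2 of the 3 Mc4r KO libraries.

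**Figure D2:**
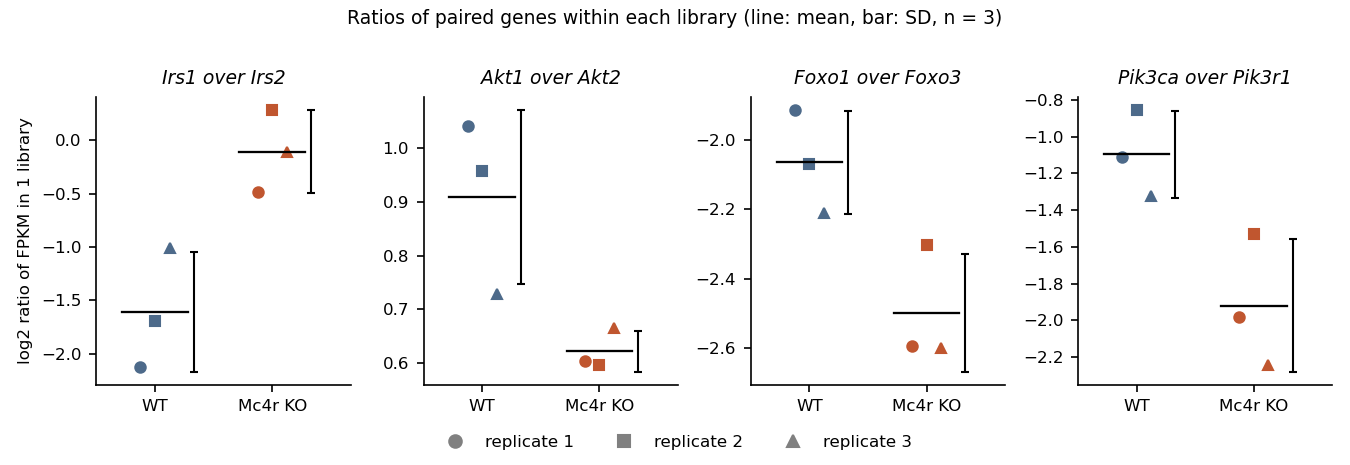
Log2 ratio of the FPKM of 2 genes within each library for Irs1 over Irs2, Akt1 over Akt2, Foxo1 over Foxo3 and Pik3ca over Pik3r1 in WT (blue) and Mc4r KO (orange) hearts. Symbols are mice, lines are means, bars are SD (n = 3), and the axes differ and do not start at 0. The groups do not overlap in any of the 4 panels, and the Irs1 over Irs2 means lie 1.50 apart. The share of other gene pairs without overlap was not determined.

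Pik3r1 and Pik3ca, which encode the regulatory subunit p85 alpha and the catalytic subunit p110 alpha of PI3K, also lay on opposite sides. Pik3r1 (chr13:101680563-101768217, minus strand) had an FPKM of 17.5, 15.1 and 15.6 in WT and of 21.5, 18.8 and 27.1 in Mc4r KO. All Mc4r KO libraries were above all WT libraries, with the highest value in Mc4r KO replicate 3. Its log2 fold change was 0.47 (SE 0.14, 95% interval 0.13 to 0.80, limma adjusted p = 0.137), and it was 0.32 without Mc4r KO replicate 3 and 0.27 with scaling outside the mitochondrial chromosome.

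Pik3ca (chr3:32397671-32468486, plus strand) had an FPKM of 8.08, 8.35 and 6.22 in WT and of 5.43, 6.49 and 5.71 in Mc4r KO. Only WT replicate 3 lay within the range of the Mc4r KO libraries. Pik3ca had a log2 fold change of -0.35 (SE 0.14, 95% interval -0.68 to -0.02, limma adjusted p = 0.219). It was -0.48 without WT replicate 3, where the adjusted p was 0.0425, -0.54 with scaling outside the mitochondrial chromosome and -0.02 with the GC covariate. Pik3ca over Pik3r1 was 0.463, 0.553 and 0.399 in WT and 0.253, 0.346 and 0.211 in Mc4r KO. The ratio was 0.565 times that of WT, without overlap (exact permutation p = 0.1, and 0.1 adjusted over the 4 ratios).

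Akt1 and Akt2, the AKT kinase genes, were the most abundant of the 10 genes and differed little between the groups. Akt1 (chr12:112653821-112674884, minus strand) had an FPKM of 42.0, 41.5 and 43.9 in WT and of 38.7, 40.6 and 41.1 in Mc4r KO. The groups were separated by less than 1 FPKM. The log2 fold change of Akt1 was -0.08 (SE 0.07, 95% interval -0.25 to 0.09, limma adjusted p = 0.563), and -0.28 with scaling outside the mitochondrial chromosome.

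Akt2 (chr7:27591552-27640826, plus strand), the isoform best known for glucose uptake in response to insulin, had an FPKM of 20.4, 21.4 and 26.5 in WT and of 25.4, 26.8 and 25.9 in Mc4r KO. WT replicate 3 lay among the Mc4r KO libraries and the other 2 WT libraries below them. Akt2 had a log2 fold change of 0.20 (SE 0.11, 95% interval -0.06 to 0.47, limma adjusted p = 0.349). It was 0.32 without WT replicate 3 (adjusted p = 0.0412), 0.01 with scaling outside the mitochondrial chromosome and -0.05 with the GC covariate. Of the 50-base words of its transcripts, 9.76% also occur in the pseudogene Akt2-ps, whose FPKM was 3.62, 4.61 and 4.90 in WT and 4.89, 4.18 and 4.56 in Mc4r KO. Reads shared by such copies could be split between them.

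Akt1 over Akt2 was 2.06, 1.94 and 1.66 in WT and 1.52, 1.51 and 1.59 in Mc4r KO. The ratio was 0.820 times that of WT without overlap (exact permutation p = 0.1, also when adjusted).

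Foxo1 and Foxo3 encode transcription factors that AKT keeps out of the nucleus. Foxo1 (chr3:52268336-52353221, plus strand) had an FPKM of 3.62, 3.66 and 3.18 in WT and of 2.64, 2.64 and 3.21 in Mc4r KO. Mc4r KO replicate 3 lay just above WT replicate 3, so the groups overlapped. The log2 fold change of Foxo1 was -0.30 (SE 0.13, 95% interval -0.59 to 0.00, limma adjusted p = 0.242). It was -0.49 with scaling outside the mitochondrial chromosome and -0.18 with the GC covariate. Exons of Gm20402 on the other strand, which had 0 reads in all libraries, cover 7.78% of its exonic bases.

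Foxo3 (chr10:42181841-42276755, minus strand) was the more abundant of the pair, with an FPKM of 13.6, 15.4 and 14.7 in WT and of 15.9, 13.0 and 19.4 in Mc4r KO. The Mc4r KO libraries held both the lowest and the highest value. The log2 fold change of Foxo3 was 0.13 (SE 0.15, 95% interval -0.22 to 0.47, limma adjusted p = 0.664). It was -0.02 without Mc4r KO replicate 3, 0.27 without Mc4r KO replicate 2 and -0.07 with scaling outside the mitochondrial chromosome. Foxo1 over Foxo3 was 0.265, 0.238 and 0.216 in WT and 0.166, 0.203 and 0.165 in Mc4r KO. The ratio was 0.741 times that of WT, and the groups did not overlap (exact permutation p = 0.1, also when adjusted).

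Gsk3b (chr16:38089001-38246084, plus strand) encodes a kinase that AKT inhibits and that itself restrains glycogen synthase. Its FPKM was 7.25, 7.90 and 6.84 in WT and 6.68, 6.90 and 7.02 in Mc4r KO. The groups overlapped, and the Mc4r KO libraries lay closely together (6.86 ± 0.173, SD, n = 3). For Gsk3b the log2 fold change was -0.09 (SE 0.09, 95% interval -0.31 to 0.13, limma adjusted p = 0.604), -0.28 with scaling outside the mitochondrial chromosome and 0.00 with the GC covariate. Without WT replicate 2 it was -0.04, and without WT replicate 3 it was -0.14.

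**Figure D3:**
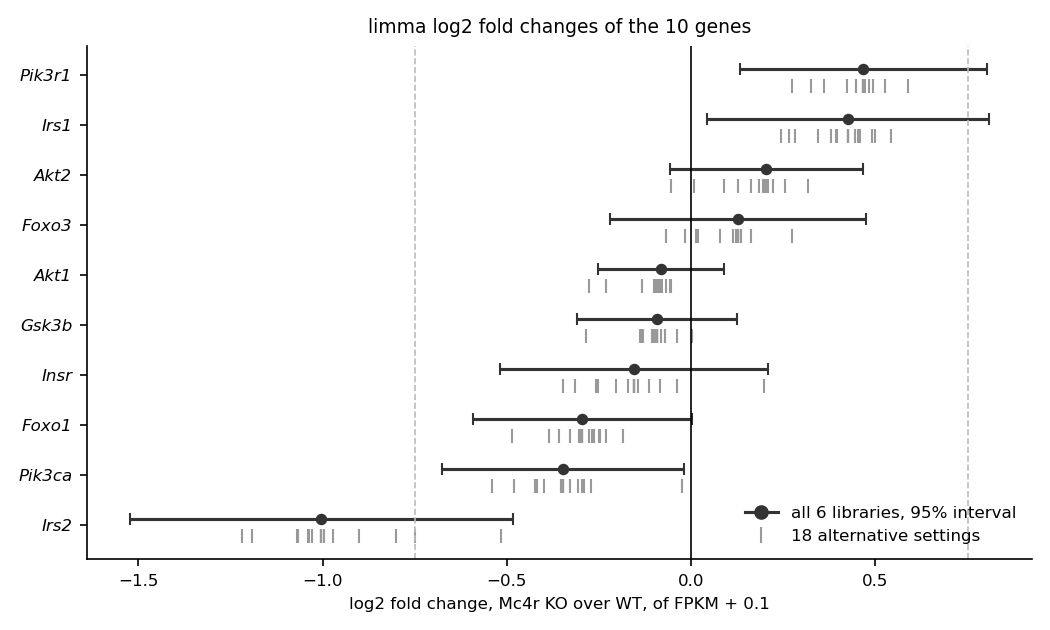
Limma log2 fold changes of the 10 genes, Mc4r KO over WT, with 95% intervals from all 6 libraries (points and bars) and the values under 18 alternative settings (ticks below each point). Dashed lines mark 0.75 in both directions. The interval of Irs2 runs from -1.52 to -0.48, and the ticks of Insr, Akt2, Foxo3 and Gsk3b lie on both sides of 0.

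By mean FPKM over all 6 libraries the order was Akt1 (41.3), Akt2 (24.4), Pik3r1 (19.2), Foxo3 (15.3), Insr (11.7), Gsk3b (7.10), Pik3ca (6.71), Foxo1 (3.16), Irs2 (2.74) and Irs1 (1.41). Neighbours whose ranges over the 6 libraries did not overlap were Akt1 and Akt2, Insr and Gsk3b, and Pik3ca and Foxo1. All other neighbours overlapped, although Foxo3 was above Insr within each of the 6 libraries. In WT alone, Irs2 (mean 3.72) lay above Foxo1 (3.49), and over both groups Foxo1 was above Irs2 in 4 of the 6 libraries.

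For each of the 10 genes, the gene with the most similar profile was sought among 77 other genes of the pathway over the 6 libraries, by the root mean square difference of centred log2 values. Irs2 had Deptor, an inhibitor of mTOR, as its nearest gene at a distance of 0.34, beside a spread of 0.57 of Irs2 itself over the libraries. Pik3r1 was nearest to the S6 kinase gene Rps6kb2 (0.15) and Pik3ca to its relative Rps6kb1 (0.07). Irs1 was nearest to the adaptor gene Sh2b1 (0.08), Insr to the exchange factor gene Sos2 (0.09), Akt1 to the docking protein gene Gab1 (0.03) and Akt2 to the adaptor gene Shc1 (0.07). Foxo1 was nearest to the lipid phosphatase gene Inpp5k (0.07), Foxo3 to Foxo4 (0.15) and Gsk3b to Tsc1 (0.02). The spread of the gene itself was 0.29 for Pik3r1, 0.23 for Pik3ca, 0.25 for Irs1, 0.20 for Insr and 0.05 for Akt1. It was 0.16 for Akt2, 0.18 for Foxo1, 0.19 for Foxo3 and 0.08 for Gsk3b. A small distance of a gene with a small spread says little, and the distance of Foxo3 was little below its spread. With 6 libraries in 2 groups, these profiles also carry the difference between the groups.

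The wider pathway was taken as 5 lists of 70 other genes, of which 68 were tested. In them 38 genes were higher and 30 lower in Mc4r KO, with a median log2 fold change of 0.06. 1 gene of the 68 was called, Ptpn11, beside 0.46% of all genes. An adjusted p under 0.05 was found for 2 of the 68, Ptpn11 and Gys1, both higher, beside 0.582% of all genes. At an unadjusted p under 0.05, 14 genes (20.6%) were higher and 5 (7.35%) lower, beside the 12.0% and 8.83% of all genes. The groups did not overlap in 16 of the 68 genes on the higher side and 8 on the lower, where 14.1% and 12.4% of all genes did so, and the lower count is near that background. Without WT replicate 3, 11 of the 68 genes and 3 of the 10 (Irs2, Pik3ca and Akt2) had an adjusted p under 0.05, where 10.3% of all genes did.

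**Figure D4:**
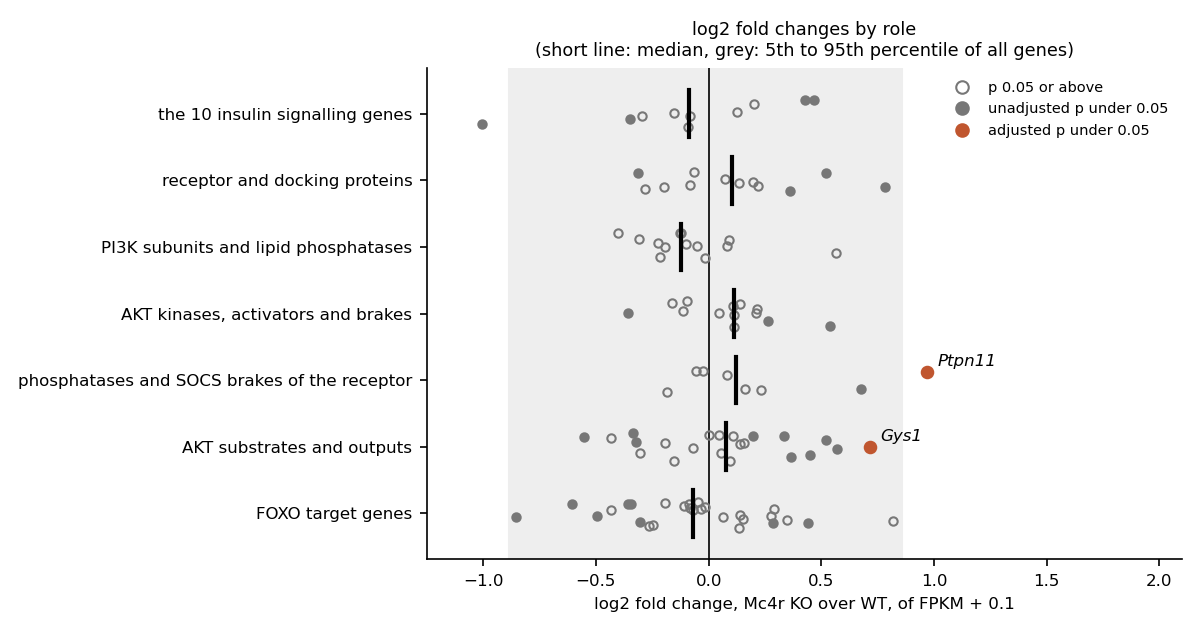
Limma log2 fold changes, Mc4r KO over WT, of the 10 insulin signalling genes, of 5 lists of other pathway genes and of FOXO target genes. Each point is 1 gene, short vertical lines are medians, and the grey band holds the 5th to 95th percentile of all genes tested (-0.89 to 0.86). Ptpn11 at 0.97 and Gys1 at 0.72 are the 2 genes with an adjusted p under 0.05.

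Of the brakes on the receptor, phosphatases and SOCS proteins, 8 genes were tested and Ptpn11 rose. Ptpn11 encodes the tyrosine phosphatase SHP2, which binds IRS proteins and in growth factor signalling mostly promotes the RAS pathway. Its FPKM was 25.2, 28.6 and 27.4 in WT and 50.8, 53.3 and 55.0 in Mc4r KO, with a log2 fold change of 0.97 (SE 0.08, limma adjusted p = 0.00974). All Mc4r KO libraries were far above all WT libraries relative to the spread within groups. The call was nevertheless lost in 8 of 18 alternatives, among them the removal of any library but WT replicate 3, with adjusted p between 0.000979 and 0.0907 over all 18. In those 8 the log2 fold change of Ptpn11 was between 0.92 and 1.005. Socs3, an inhibitor of cytokine and insulin receptors, had an FPKM of 1.08, 1.20 and 2.01 in WT and 2.79, 1.91 and 2.18 in Mc4r KO (log2 fold change 0.68, SE 0.25, limma adjusted p = 0.196). Ptpn1, which encodes the phosphatase PTP1B that dephosphorylates the insulin receptor, had a log2 fold change of 0.23 (SE 0.14, adjusted p = 0.409).

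Of the 12 tested genes of receptors, docking and adaptor proteins, 7 were higher and 5 lower, and none passed the test. At an unadjusted p under 0.05, 3 (25%) were higher and 1 (8.33%) lower, and the latter share is near the 8.83% of all genes, beside 12.0% higher. Cav3, which encodes the muscle form of the caveolin that shapes membrane pits where insulin receptors gather, had an FPKM of 30.2, 28.3 and 40.2 in WT and 48.6, 62.6 and 58.0 in Mc4r KO. Its groups did not overlap (log2 fold change 0.78, SE 0.16, limma adjusted p = 0.0744). Sh2b1, an adaptor that enhances receptor signalling, had a log2 fold change of 0.36 (SE 0.15, adjusted p = 0.222).

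The other PI3K subunits and the lipid phosphatases that oppose them had 10 of 13 members lower in Mc4r KO, where 48.8% of all genes were higher. None had an unadjusted p under 0.05, beside 12.0% of all genes higher and 8.83% lower. Their median log2 fold change was -0.12. The 3 with the smallest p were Inpp5k (-0.22), Pik3ip1, an inhibitor of PI3K (-0.22), and Pik3r5, a regulatory subunit (0.57), each with a limma adjusted p of at least 0.327.

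Among 13 kinases, activators and brakes of AKT, 9 were higher and 4 lower, 2 and 1 of them at an unadjusted p under 0.05 (12.0% and 8.83% of all genes), and none passed the test. Mlst8, a subunit of both mTOR complexes, had an FPKM of 2.47, 1.57 and 2.13 in WT and 2.81, 3.17 and 2.98 in Mc4r KO (log2 fold change 0.54, SE 0.17, limma adjusted p = 0.151). Rictor, the subunit that defines the mTOR complex 2 which phosphorylates AKT, lay on the other side with 1.86, 1.60 and 1.40 in WT and 1.29, 1.24 and 1.17 in Mc4r KO (log2 fold change -0.36, limma adjusted p = 0.238). Both genes had groups that did not overlap, and 22.5% of the exonic bases of Mlst8 are covered by exons of the other strand. Ppp2ca, the catalytic subunit of a phosphatase that acts on AKT, had a log2 fold change of 0.26 (SE 0.08, limma adjusted p = 0.141), with 41.3% of its exonic bases covered in this way.

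The substrates and outputs of AKT numbered 22, of which 14 were higher and 8 lower. At an unadjusted p under 0.05, 7 (31.8%) were higher and 3 (13.6%) lower, against 12.0% and 8.83% of all genes. Gys1, the glycogen synthase of muscle, was higher, with an FPKM of 19.2, 18.7 and 20.8 in WT and 29.2, 34.3 and 33.2 in Mc4r KO. The groups lay well apart, with a log2 fold change of 0.72 (SE 0.09, limma adjusted p = 0.0396), which is below the limit of 0.75 for a call. The adjusted p stayed under 0.05 in 7 of 18 alternatives, and the value was positive in all 18. As for Irs2, many of these settings could not reverse the sign. Slc2a4, which encodes GLUT4, was the most abundant gene of the pathway lists with an FPKM of 91.7, 91.0 and 103 in WT and 119, 128 and 122 in Mc4r KO. Its groups did not overlap (log2 fold change 0.37, SE 0.09, limma adjusted p = 0.0983). Deptor had an FPKM of 3.40, 3.32 and 3.08 in WT and 2.06, 2.31 and 2.21 in Mc4r KO (log2 fold change -0.55, SE 0.11, limma adjusted p = 0.0744). The cardiomyocyte markers, whose summed FPKM was also above WT in all Mc4r KO libraries, stand beside the values of the muscle genes Gys1, Slc2a4 and Cav3, and their part in them was not tested.

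FOXO target genes, whose transcription these factors are known to drive, were described in the same way. Of 30 genes listed, 27 were tested, and the liver genes Igfbp1, G6pc and Pck1 were below the filter. 10 were higher and 17 lower in Mc4r KO, with a median log2 fold change of -0.07, and none was called or had an adjusted p under 0.05. At an unadjusted p under 0.05, 2 (7.41%) were higher and 6 (22.2%) lower, beside the 12.0% and 8.83% of all genes. The groups did not overlap in 2 of the 27 on the higher side and 7 on the lower, where 14.1% and 12.4% of all genes did so.

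Bcl2l11, which encodes the cell death protein BIM, had the smallest p of the FOXO targets. Its FPKM was 2.50, 2.31 and 2.87 in WT and 1.46, 1.13 and 1.54 in Mc4r KO, with a log2 fold change of -0.85 (SE 0.16, limma adjusted p = 0.0664). All Mc4r KO libraries were below all WT libraries. Gadd45a, a stress response gene, had an FPKM of 5.51, 5.76 and 4.36 in WT and 3.21, 3.13 and 3.78 in Mc4r KO (log2 fold change -0.61, limma adjusted p = 0.0954). Klf2, a transcription factor gene of endothelium, had an FPKM of 57.8, 57.6 and 67.8 in WT and 46.3, 35.2 and 49.1 in Mc4r KO (log2 fold change -0.50, limma adjusted p = 0.124).

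Fbxo32, the ubiquitin ligase atrogin-1 of muscle wasting, had an FPKM of 22.5, 21.6 and 21.4 in WT and 18.4, 14.0 and 19.5 in Mc4r KO, and a log2 fold change of -0.35 (limma adjusted p = 0.200). Ccng2, a cyclin gene of cell cycle arrest, had a log2 fold change of -0.30 (limma adjusted p = 0.225), and Rictor, given above, belongs to this list as well. In these 6 genes that were lower, the groups did not overlap. Sod2, the mitochondrial superoxide dismutase, lay on the other side with an FPKM of 47.7, 50.5 and 52.3 in WT and 60.4, 65.7 and 57.4 in Mc4r KO (log2 fold change 0.29, limma adjusted p = 0.133). Bnip3, a gene of mitophagy, had an FPKM of 41.4, 39.8 and 27.4 in WT and 47.1, 48.3 and 49.7 in Mc4r KO (log2 fold change 0.44, limma adjusted p = 0.184). Genes that share words with other genes are less certain here, since 21.04% of the 50-base words of Sod2 and 16.5% of those of Bnip3 occur in transcripts of other genes. Exons of the other strand cover 22.3% of the exonic bases of Bnip3 and 19.1% of those of Gadd45a.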

How the data were processed

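Heart RNA of 3 WT and 3 Mc4r KO mice, 1 library per mouse, was enriched for poly(A) and prepared with a NEBNext Ultra kit. The authors aligned the reads with HISAT2 (version 2.0.5 and build mm10 in the submitters' processing notes), counted them on genes with featureCounts, and deposited FPKM per gene and library with gene positions and lengths. Which annotation release was used, and whether strand was used, is not given in the sources used here. FPKM times length gave whole reads for 100% of values (tolerance 0.05). 99.9% of the identifiers were found in GENCODE M21, in which exon overlap and shared words of 50 bases were measured. Promoters came from RefSeq (GRCm38.p6), which held 14 windows for 9 of the 10 genes.

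Limma (version 3.58.1, R 4.3.3, data.table version 1.17.8) with trend and no covariate was fitted to log2(FPKM + 0.1) after median-of-ratios scaling, whose factors were all 1, since the deposited values were already scaled between libraries. The pseudocount makes fold changes of low genes smaller. Tests were two-sided, and the thresholds were those of the study. The script was tested on simulated data. Within-library ratios used the exact permutation test over samples (scipy 1.17.1, pandas 2.3.3, Python 3.11.15), and figures matplotlib 3.10.9. P-values measure the spread between the mice.

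The genes and lists (5 of the pathway, 1 of FOXO targets, 8 of cell type markers) were chosen with earlier results of these data known. Named are the 10 genes, pathway genes with an adjusted p under 0.05 or among the 3 smallest p of their list, the 8 FOXO targets with the smallest p, the most abundant marker of each list and the nearest profile of each of the 10. Results for some single genes are not reported here. Alternatives tried were a pseudocount of 0.01 or 1, no filter or a mean FPKM of at least 1, quantile normalization, scaling outside the mitochondrial chromosome, no trend, array weights, a replicate block, a covariate holding the GC percentage of clean reads (from the study's supplement), voom on recovered reads, protein-coding genes only, and leaving out each library.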

Additional observations from a re-analysis of the deposited data

How the results depend on the processing

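Of the 10 genes, none was called with all 6 libraries, and 1, Irs2, was called with array weights, with voom and with protein-coding genes only; leaving out each library gave 0 to 1. The number with an adjusted p under 0.05 was 0 and became 1 in the same 3 settings and 0 to 3 when a library was left out, with 3 only without WT replicate 3. The number with an unadjusted p under 0.05 was 4, and 0 with the GC covariate and 2 to 7 when a library was left out. Of the pathway genes, 2 had an adjusted p under 0.05. This count was 1 with no filter, quantile normalization or scaling outside the mitochondrial chromosome, 0 without trend, with the replicate block and with the GC covariate, 7 with array weights, 5 with voom, 4 with protein-coding genes only and 0 to 11 when a library was left out. Their 19 with an unadjusted p under 0.05 became 11 with the GC covariate and 12 to 27 when a library was left out. FOXO targets with an adjusted p under 0.05 went from 0 to 1 with a mean FPKM of at least 1, voom or protein-coding genes only, to 2 with array weights, and to 0 to 2 when a library was left out. Their 8 at an unadjusted p became 5 without trend, 4 with the GC covariate and 5 to 10 when a library was left out. The causes were not tested, except that fits without a library hold fewer samples. The 4 ratios kept their direction in 7 of 7 alternatives, which were a pseudocount of 1 and leaving out each library. Leaving out a library could not reverse them, because their groups did not overlap. Replicate numbers did not pair the libraries, since deviations of same-numbered libraries correlated at -0.141, 0.0074 and -0.0818 and 0 of 6 libraries correlated best with their own number. The replicate block left the number of the 10 genes called at 0, and Ptpn11 had an adjusted p of 0.0712 with it. Between 145 and 430 reads for Irs2 and between 143 and 255 for Irs1 limit the precision of these low genes, and intervals of reads would cover counting error only.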

Other observations

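Several genes were at their highest in Mc4r KO replicate 3, and they were chosen after their values were seen. Pdk4, which encodes a kinase that blocks the use of glucose for oxidation and is a FOXO target, had an FPKM of 54.3, 126 and 108 in WT and of 115, 121 and 290 in Mc4r KO, for replicates 1, 2 and 3 in this order. Catalase (Cat), an antioxidant enzyme, had 78.1, 88.6 and 80.4 in WT and 85.7, 94.5 and 122 in Mc4r KO. Txnip, an inhibitor of glucose uptake, had 133, 155 and 121 in WT and 158, 125 and 168 in Mc4r KO. Pik3r1, Foxo3 and Foxo4 were also at their highest in this mouse, with an FPKM of 27.1, 19.4 and 18.2. Irs2 was not, at 1.84 between the other 2 Mc4r KO libraries. Of the FOXO targets named above, Bnip3 was also highest in this mouse, whereas Bcl2l11, Gadd45a, Klf2, Fbxo32, Ccng2, Rictor and Sod2 were not. The share of all genes at their highest in this library was not determined, and no test was made of 1 mouse against the others.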
